A study of Mus musculus with 2 samples.

Results

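The citric acid cycle and pyruvate dehydrogenase genes described here are 29 genes chosen by name: the pyruvate dehydrogenase complex and its regulators, pyruvate entry into mitochondria, the cycle enzymes, and the enzymes that exchange aspartate and glutamate with the cycle. Of the 29 names, 28 matched the gene names of the deposited tables and 1, Pc, matched through a RefSeq synonym (listed as Pcx). All 29 had reads, out of 18179 annotated genes with a read in either library. The whole adrenal glands came from female mice of the strain B6CASTF1/J, an F1 hybrid of B6 and CAST parents, 10 days after birth, with no treatment named. Long-read RNA sequencing was applied to 2 libraries of 1 group, numbered as biological replicates 1 and 2, so the series holds no contrast between conditions. The sample labels number the glands 03 and 04, while the library text of both names 03, and both carry the same donor entry, so whether 1 or 2 animals were used is not clear from them. Every test therefore compares the reads of 2 libraries, and the binomial and Fisher p-values take in counting error only.

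Pyruvate made by glycolysis enters the mitochondrion through a carrier and is turned by the pyruvate dehydrogenase complex into acetyl-CoA, or by pyruvate carboxylase into oxaloacetate. Citrate synthase joins acetyl-CoA to oxaloacetate, and the cycle then passes through isocitrate, 2-oxoglutarate, succinyl-CoA, succinate, fumarate and malate back to oxaloacetate. In the steroid-making cells of the adrenal cortex, the mitochondrial cytochromes that cut and hydroxylate cholesterol draw on NADPH, to which NADP-dependent isocitrate dehydrogenase and malic enzyme contribute.

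The genes were abundant in both libraries. Their reads summed to 15274 CPM (counts scaled to library size, spike-ins left out; 9060 reads) in replicate 1 and 16615 CPM (12829 reads) in replicate 2, a mean of 15944 ± 948 CPM (SD, n = 2). Each long read was counted once whatever its length, so CPM is not divided by transcript length here. Repeated reads of the same molecule, and any effect of transcript length on the number of reads, were not examined. The median gene of the set stood at 462 CPM, against 31.6 CPM for the genes with 10 or more reads summed over the libraries. By mean CPM, 19 of the 29 were among the 500 highest genes and 25 among the 1000 highest. Idh3a, Mdh2 and Sucla2 led, with 1605, 1381 and 1374 CPM on average. Pdp1, at 13.2 CPM, was the only one of the 29 below the median of the tested genes.

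**Figure D1:**
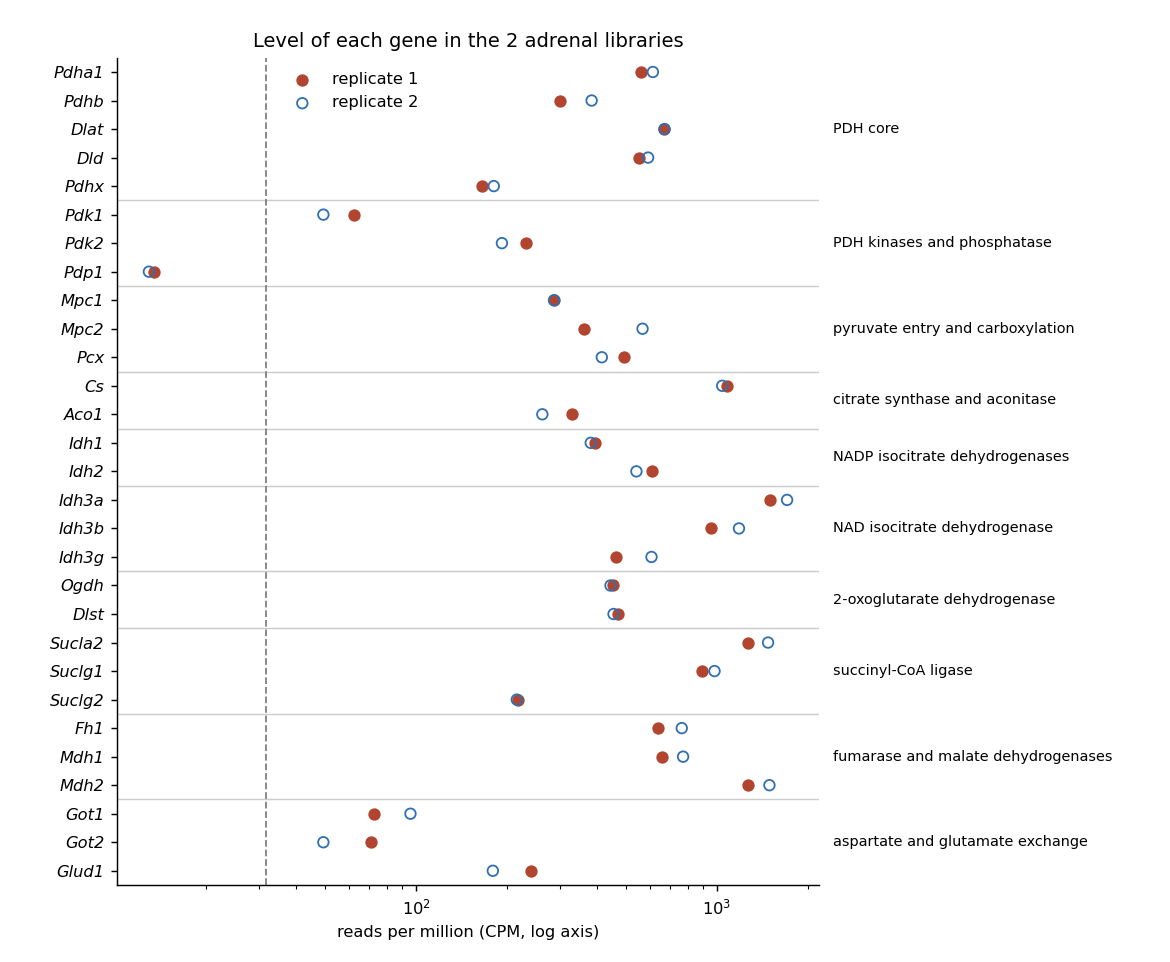
Level of each gene (rows, in order of role) in CPM on a log axis, filled for replicate 1 and open for replicate 2; the dashed line marks the median of all tested genes (31.6 CPM). Of the 29 genes only Pdp1 lies left of that line.

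The tissue held the defining genes of the adrenal gland, and also those of neighbouring tissues in unequal amounts. The 6 markers of steroid-making cortex (Cyp11a1 to Nr5a1, all with reads) summed to 16860.4 CPM in replicate 1 and 20734 CPM in replicate 2, and the 6 chromaffin markers to 4894 and 5437 CPM. The 6 brown fat and adipocyte markers summed to 9596 and 14318 CPM, the 6 skeletal muscle markers to 10319 and 3409.9 CPM, and the 6 liver markers to 7708 and 1246 CPM. All 6 kidney markers had 0 reads in replicate 1 (3 counts would be 5.06 CPM) and together 629 CPM, 486 reads, in replicate 2. Endothelial markers summed to 472 and 395 CPM, macrophage markers to 118 and 86.8 CPM, and red cell markers to 5585 and 4187 CPM. The part of these tissues in the levels below was not tested, and in bulk tissue fewer cells of a type and less RNA per cell cannot be told apart.

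None of the 29 genes met the call for a difference between the libraries, which asked for an adjusted p below 0.05 in a two-sided exact binomial test (Benjamini-Hochberg over 10567 genes) and at least a 2-fold ratio. Over all tested genes 366, or 3.46%, met it. The edgeR exact test called 0 of the 29, and none had an unadjusted edgeR p below 0.05, with a common dispersion of 0.0628 that was estimated from the same 2 libraries and so is no independent measure of their spread. In the binomial test, 12 of the 29 had an unadjusted binomial p below 0.05, against 16% of all tested genes. This test finds smaller ratios in genes with more reads, and the set had a higher median level (462 against 31.6 CPM). Shares of the set and of all tested genes are thus not compared at equal depth. Without the fold minimum 6 genes passed in the binomial test, against 6.79% of all tested genes, and in all 6 replicate 1 was the lower library, as in 3.61% of all tested genes. These 6 were Mpc2, Idh3a, Idh3b, Idh3g, Sucla2 and Mdh2. The number of genes that passed was 7 with TMM library sizes, 9 with DESeq2 size factors, 7 on annotated models only and 5 on spliced models only. The genes were not all the same. On annotated models only, Idh3g did not pass, and Fh1 (exact binomial adjusted p = 0.0377) and Ogdh (log2 ratio -0.62, exact binomial adjusted p = 0.0219) did. Over the set the median log2 ratio (replicate 1 over replicate 2) was -0.00, against 0.04 over all tested genes, and the single ratios ran between -0.64 for Mpc2 and 0.52 for Got2. On library totals 13 genes were higher in replicate 1 and 16 in replicate 2. The split was 11 and 18 with TMM library sizes and 7 and 22 with DESeq2 size factors.

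**Figure D2:**
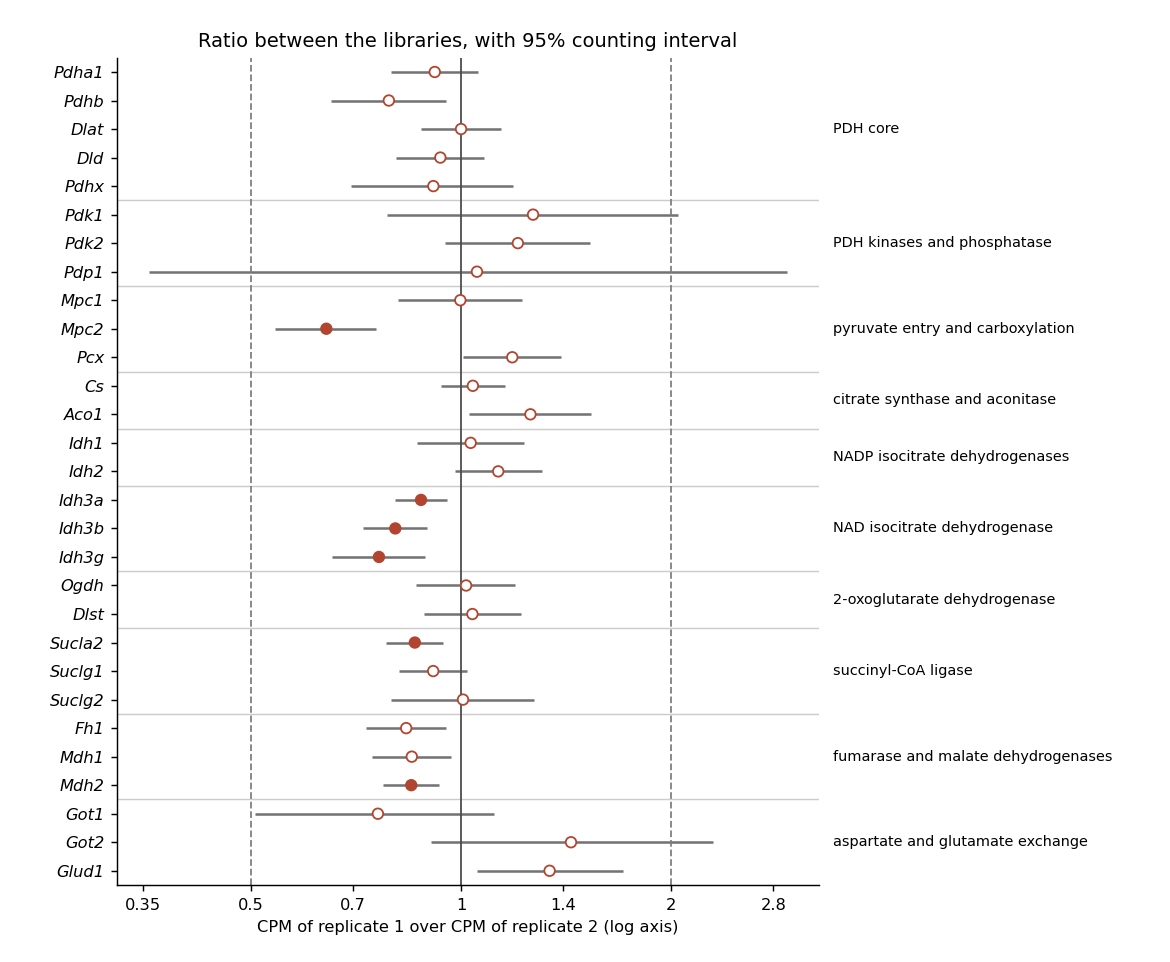
Ratio of replicate 1 to replicate 2 for each gene on a log axis, with exact 95% intervals that cover counting error; filled points mark the 6 genes with an adjusted p below 0.05 and dashed lines a 2-fold ratio. All 6 filled points lie left of 1, with ratios between 0.641 and 0.876.

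The 5 genes of the pyruvate dehydrogenase complex summed to 2249 CPM in replicate 1 and 2437 CPM in replicate 2. Pdha1 and Pdhb encode the alpha and beta subunits of the decarboxylase. Pdha1 (X chromosome) had 333 and 473 reads, 561 and 613 CPM, and Pdhb had 179 and 296 reads, 302 and 383 CPM. Pdha1 thus exceeded its partner in both libraries, 1.86-fold (95% counting interval 1.55 to 2.24) in replicate 1 and 1.60-fold (1.38 to 1.85) in replicate 2. Dlat encodes the dihydrolipoyl acetyltransferase that forms the core of the complex, and reached 669 CPM (397 reads) in replicate 1 and 669.6 CPM (517 reads) in replicate 2, the ratio nearest to 1 of the set (1.00, 0.875 to 1.14). Dld, the lipoamide dehydrogenase shared with the 2-oxoglutarate and branched-chain complexes, had 551 and 591 CPM. Pdhx, the protein that binds the dehydrogenase to the core, was the scarcest of the 5, with 98 and 140 reads, 165 and 181 CPM. Pdha1 reads outnumbered Pdhx reads 3.40-fold in replicate 1 and 3.38-fold in replicate 2.

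The regulators of the complex were read far less. Pdk1 and Pdk2 encode kinases that phosphorylate and switch off the decarboxylase, and Pdp1 encodes a phosphatase that reverses this. Pdk2 had 138 and 149 reads, 233 and 193 CPM, and Pdk1 had 37 and 38 reads, 62.4 and 49.2 CPM. Pdk2 exceeded Pdk1 3.73-fold (2.58 to 5.52) in replicate 1 and 3.92-fold (2.73 to 5.76) in replicate 2. Pdp1 had 8 and 10 reads, 13.5 and 13.0 CPM, and its ratio of 1.05 carried an interval of 0.357 to 2.93, so a difference of 2-fold was not detectable at this depth. Among the other regulators, Pdk4, the kinase induced by fasting and fatty acids, stood above all 3 of these with 597 and 751 CPM (ratio 0.795, exact binomial adjusted p = 0.0133, below the fold minimum).

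Pyruvate entry and carboxylation summed to 1139.7 and 1268 CPM. Mpc1 and Mpc2 encode the subunits of the mitochondrial pyruvate carrier, which form a heterodimer. Mpc2 had 215 reads and 362 CPM in replicate 1, against 437 reads and 566 CPM in replicate 2. Its ratio of 0.641 (0.541 to 0.756) was the lowest of the 29 genes (exact binomial adjusted p = 2.89e-06), and it stayed above the 0.5 needed for a call. Mpc1 had 170 and 222 reads, 286.6 and 287.5 CPM, with a ratio of 1.00 (0.811 to 1.22). Reads of Mpc2 thus outnumbered those of Mpc1 1.26-fold (1.03 to 1.56) in replicate 1 and 1.97-fold (1.67 to 2.32) in replicate 2, intervals that do not overlap. Pcx, pyruvate carboxylase, which refills oxaloacetate, had 491 and 414 CPM (ratio 1.18, 1.01 to 1.39).

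Mpc1 (chr17:8282904-8297661, plus strand, mm10) was 1 of 2 genes of the set whose main spliced model is not annotated, as in 5.64% of the 2091 genes that had 50 or more reads in both libraries. The annotation has a 4-base coding exon between the first coding exon and a 97-base exon. Mpc1-206 and Mpc1-208 place it at chr17:8293415-8293418, and Mpc1-201 places it at chr17:8296527-8296530, only 4 bases ahead of the 97-base exon at chr17:8296535-8296631. The 3 junctions are printed to show what the exon adds: 24 coding bases on each side, from the GENCODE M21 transcripts on mm10, with the 4 bases in capitals. The last of them is the direct junction of the main model.
Mpc1-208: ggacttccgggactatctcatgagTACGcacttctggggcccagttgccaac
Mpc1-201: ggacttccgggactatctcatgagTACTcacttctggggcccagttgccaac
Mpc1 main model: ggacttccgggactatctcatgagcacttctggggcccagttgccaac
The 2 versions of the exon differ by G4T (Mpc1-208 first, counted from 1 at the exon's 5′ end) and are the same in the printed bases around it. In the deposited models every informative read took the direct junction: 159 of 159 reads in replicate 1 and 213 of 213 in replicate 2. For the exon of Mpc1-206 and Mpc1-208 that allows up to 2.29% and 1.72% of reads (exact upper limits, counting error only). The exon of Mpc1-201 could be scored only on models that hold the 4-base gap after it as an intron. Its 0 reads therefore set no limit. Over all genes, 64 of 67 annotated exons of 15 bases or fewer (95.5%) were never included in the deposited models. The limits therefore hold for those models, and whether the transcripts lack the exon was not tested. The main model, with 4 exons, held 158 and 210 reads, 92.9% and 94.6% of the gene's reads. Its joining intron (chr17:8283962-8296534) links annotated splice sites, so the authors' tables class it as a new combination of known sites. A length of 4 is not a multiple of 3, so the models with and without the exon read the bases after it in different frames. Whether the reads themselves hold the 4 bases was not examined, since models and not read sequences were used.

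Citrate synthase, the enzyme of the entry step, was among the most abundant, and the cytosolic aconitase Aco1, which doubles as an iron-regulated RNA-binding protein, was lower. Cs had 642 and 804 reads, 1082 and 1041 CPM (ratio 1.04, 0.936 to 1.15), and Aco1 had 196 and 203 reads, 330.4 and 263 CPM (ratio 1.26, 1.03 to 1.54). Cs exceeded Aco1 3.28-fold in replicate 1 and 3.96-fold in replicate 2.

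The isocitrate step has a pair of NADP-dependent enzymes and 1 NAD-dependent complex. Idh1, the cytosolic NADP enzyme, had 233 and 294 reads, 393 and 381 CPM. Idh2, its mitochondrial counterpart, had 362 and 417 reads, 610.3 and 540.05 CPM. Idh2 exceeded Idh1 1.55-fold (1.31 to 1.84) in replicate 1 and 1.42-fold (1.22 to 1.65) in replicate 2, and the ratios between the libraries were 1.03 (0.865 to 1.23) for Idh1 and 1.13 (0.979 to 1.30) for Idh2.

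The NAD-dependent enzyme, made of the catalytic alpha subunit Idh3a and the subunits Idh3b and Idh3g, was the most abundant group of the set, with 2913 CPM in replicate 1 and 3501 CPM in replicate 2. All 3 genes passed the test without the fold minimum, and replicate 1 was the lower library for each. Idh3a had 889 and 1321 reads, 1499 and 1711 CPM (ratio 0.876, 0.804 to 0.955, exact binomial adjusted p = 0.0374). Idh3b had 565 and 914 reads, 953 and 1184 CPM (ratio 0.805, 0.723 to 0.895, exact binomial adjusted p = 0.00136). Idh3g had 274 and 468 reads, 462 and 606 CPM (ratio 0.763, 0.654 to 0.887, exact binomial adjusted p = 0.00803). On spliced models only, Idh3b did not pass (log2 ratio -0.18, exact binomial adjusted p = 0.318), and on annotated models only, which hold under 3% of Idh3g reads, Idh3g did not (exact binomial adjusted p = 0.926). The order of the 3 was the same in both libraries, with Idh3a 1.57-fold over Idh3b in replicate 1 and 1.45-fold in replicate 2, and Idh3b over Idh3g 2.06-fold and 1.95-fold. Of the marker lists given above, those of cortex, chromaffin cells, brown fat and kidney were also lower in replicate 1. Those of skeletal muscle, liver, endothelium, macrophages and red cells were higher in it. These are sums, and some single markers went the other way in CPM. They were Dbh (128 and 107 reads) and, by little, Th (562 and 724) of chromaffin cells. Emcn (17 and 36 reads) and, by little, Cdh5 (15 and 20) of endothelium did so too, as did C1qb (11 and 18) of macrophages. The part of these tissues and cells in the ratios was not tested.

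Idh3g (chrX:73778963-73786897, minus strand, mm10) was the second gene whose main model is not annotated. The coding transcript Idh3g-201 has a 12-base exon at chrX:73782298-73782309, its exon 3. The main model leaves it out and extends the exon before it by 4 bases (chrX:73782671-73782674), which makes the intron chrX:73782104-73782670. The junctions are printed with 24 coding bases of Idh3g-201 on each side and the variable bases in capitals. The 4 extra bases were read from the retained-intron transcript Idh3g-209.
Idh3g-201: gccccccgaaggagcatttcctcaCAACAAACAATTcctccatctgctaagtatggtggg
Idh3g main model: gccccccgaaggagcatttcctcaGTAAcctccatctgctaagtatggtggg
Idh3g direct junction: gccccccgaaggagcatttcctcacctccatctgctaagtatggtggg
Of 230 informative reads in replicate 1, 200 lay on models with the 4-base extension, 30 on the direct junction and 0 on the 12-base exon. In replicate 2 the numbers were 367, 61 and 0 of 428. The extension thus took 87.0% (81.9 to 91.0, exact 95% interval) in replicate 1 and 85.7% (82.1 to 88.9) in replicate 2, and the 12-base exon at most 1.59% and 0.858%. As for Mpc1, these limits hold for the deposited models, where nearly all annotated exons this short were never included over all genes. The intron left by the extension starts with GT and ends with AG. A length of 4 is not a multiple of 3, whereas 12 is. Models with the extension therefore read the bases after it in a different frame from Idh3g-201 and from the direct junction. The main model held 177 and 341 reads, 64.6% and 72.9% of the gene's reads. The direct junction appears in the annotation, in the noncoding transcript Idh3g-205, and the most-read model with it had 29 and 54 reads. As for Mpc1, the read sequences at the junction were not examined.

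Idh3b differed within itself at its 3′ end. The annotated Idh3b-201 held 48.7% of the reads in replicate 1 and 49.3% in replicate 2, and single-exon reads, all of them overlapping the last exon of a coding transcript, a further 27.8% (157 reads) and 33.9% (310 reads). Among reads on models that splice from the preceding exon into this end, 304 of 383 in replicate 1 and 478 of 548 in replicate 2 were not spliced further and ended in the 418-base last exon of Idh3b-201 (chr2:130279309-130279726). That was 79.4% (75.0 to 83.3) and 87.2% (84.1 to 89.9). Another 48 and 24 reads, 12.5% and 4.38%, left out the 171-base upstream stretch of that exon and spliced to the terminal exon, and 26 and 33 reads, 6.79% and 6.02%, kept it and spliced on, as in the annotated Idh3b-204. The remaining 5 and 13 reads kept the upstream stretch and spliced on at another site. models of these forms are unannotated, a 12-exon model with 38 and 24 reads and a 13-exon model with 26 and 30 reads. No test across all genes covers this 3′ choice, so the share is given as counts with their intervals.

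The 2-oxoglutarate dehydrogenase complex is built like the pyruvate complex and shares Dld with it. Ogdh, its decarboxylase, had 267 and 342 reads, 450.1 and 443 CPM, and Dlst, the succinyltransferase of its core, had 279 and 350 reads, 470.4 and 453 CPM. The reads of the 2 genes did not differ beyond counting error in either library: Dlst over Ogdh was 1.04 (0.880 to 1.24) in replicate 1 and 1.02 (0.879 to 1.19) in replicate 2. Reads of Ogdh that cover the alternative exons of its 5′ part used the 103-base exon (chr11:6316978-6317080) in 105 of 110 reads in replicate 1 and 185 of 191 in replicate 2, 95.5% and 96.9%. The 91-base exon (chr11:6316765-6316855) took 5 and 6 reads. The first intron of Ogdh-201 was used in 91.7% and 88.4% of 96 and 181 reads that cover a first intron of the 3 annotated forms compared.

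Succinyl-CoA ligase pairs the shared alpha subunit Suclg1 with a beta subunit that fixes the nucleotide, Sucla2 for ATP or Suclg2 for GTP. Suclg1 had 531 and 758 reads, 895 and 982 CPM. Sucla2 had 753 and 1142 reads, 1269 and 1479 CPM (ratio 0.859, 0.782 to 0.942, exact binomial adjusted p = 0.0212). Suclg2 had 129 and 167 reads, 217 and 216 CPM. Reads of Sucla2 thus outnumbered those of Suclg2 5.84-fold (4.84 to 7.09) in replicate 1 and 6.84-fold (5.81 to 8.09) in replicate 2. These are reads of the beta subunit genes, and the amounts of the enzyme forms were not measured. Sucla2 also exceeded its alpha partner, 1.42-fold in replicate 1 and 1.51-fold in replicate 2.

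Fumarase and the malate dehydrogenases summed to 2561 CPM in replicate 1 and 3030.5 CPM in replicate 2, and replicate 1 was the lower library for all 3. Fh1, fumarase, had 378 and 590 reads, 637 and 764 CPM (ratio 0.834, 0.731 to 0.951). Mdh1, the cytosolic malate dehydrogenase, had 389 and 596 reads, 656 and 772 CPM (ratio 0.850, 0.746 to 0.967). Mdh2, the mitochondrial enzyme that closes the cycle, had 752 and 1154 reads, 1268 and 1495 CPM (ratio 0.848, 0.773 to 0.931, exact binomial adjusted p = 0.00991). Of these only Mdh2 had an adjusted p below 0.05 on library totals. For Fh1 it was 0.0779, with 0.0298 on TMM library sizes and 0.00389 on DESeq2 size factors. For Mdh1 the adjusted p of the exact binomial test was 0.131 on library totals, 0.0569 on TMM library sizes and 0.00891 on DESeq2 size factors. Reads of Mdh2 outnumbered those of Mdh1 1.93-fold (1.71 to 2.19) in replicate 1 and 1.94-fold (1.75 to 2.14) in replicate 2. Part of the Fh1 reads did not lie on a coding model: Fh1-203, annotated as a retained intron whose first exon of 593 bases (chr1:175606055-175606647) starts inside an intron of Fh1-201, had 68 and 144 reads, 18.0% and 24.4%.

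The 3 genes that link the cycle to amino acids summed to 384 CPM in replicate 1 and 325 CPM in replicate 2, the lowest sum of any group besides the regulators. Got1 and Got2 encode the cytosolic and the mitochondrial aspartate aminotransferase of the malate-aspartate shuttle. Got1 had 43 and 74 reads, 72.5 and 95.8 CPM, and Got2 had 42 and 38 reads, 70.8 and 49.2 CPM. Got1 over Got2 was 1.02 (0.653 to 1.61) in replicate 1 and 1.95 (1.30 to 2.96) in replicate 2, intervals that overlap. Glud1, glutamate dehydrogenase, which yields 2-oxoglutarate, had 143 and 139 reads, 241 and 180.02 CPM (ratio 1.34, 1.05 to 1.70, exact binomial adjusted p = 0.156).

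In the set, 76.1% (75.2 to 77.0) of reads in replicate 1 and 79.4% (78.7 to 80.1) in replicate 2 lay on annotated models, against 71.0% and 75.6% over all annotated genes. Single-exon reads took 6.84% and 5.98%, against 14.5% and 12.0%. Of the single-exon reads of the set, 610 of 620 in replicate 1 and 749 of 767 in replicate 2 overlapped the last exon of a coding transcript. They were most common in Got2 (38.1% and 39.5%), Idh3b, Dlst (24.7% and 21.1%) and Pcx (22.7% and 27.8%), and Pdp1 and Pdk1 had under 40 reads behind such shares. The class given to such reads was not the same in each library: 49.5% of Pcx reads were called incomplete and 0% genomic in replicate 1, against 20.0% and 27.8% in replicate 2. The median gene of the set had 87.1% of its reads on annotated models. Spliced models with a new combination of sites or an unannotated site held most reads only in Mpc1 and Idh3g of the 29. Annotated models also held under 50% in both libraries in Ogdh (31.8% and 49.7%), Got2 (28.6% and 39.5%), Pcx (42.6% and 47.5%) and Idh3b (48.7% and 49.5%), genes in which incomplete and genomic reads took more than new combinations and unannotated sites did. Of unannotated spliced models with 5 or more reads in each library, leaving out those whose introns are all part of an annotated transcript, the 10 most read were those named above for Mpc1, Idh3g and Idh3b and 5 more. These 5 were an 11-exon model of Idh3a with 16 and 22 reads, a second of it with 8 and 10 reads, another 12-exon model of Idh3g with 9 and 14 reads, a 10-exon model of Got2 with 8 and 6 reads, and a 2-exon model of Idh3b with 7 and 7 reads. The Got2 model is 19.0% and 15.8% of its gene's reads, and the other 4 are under 4% each.

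**Figure D3:**
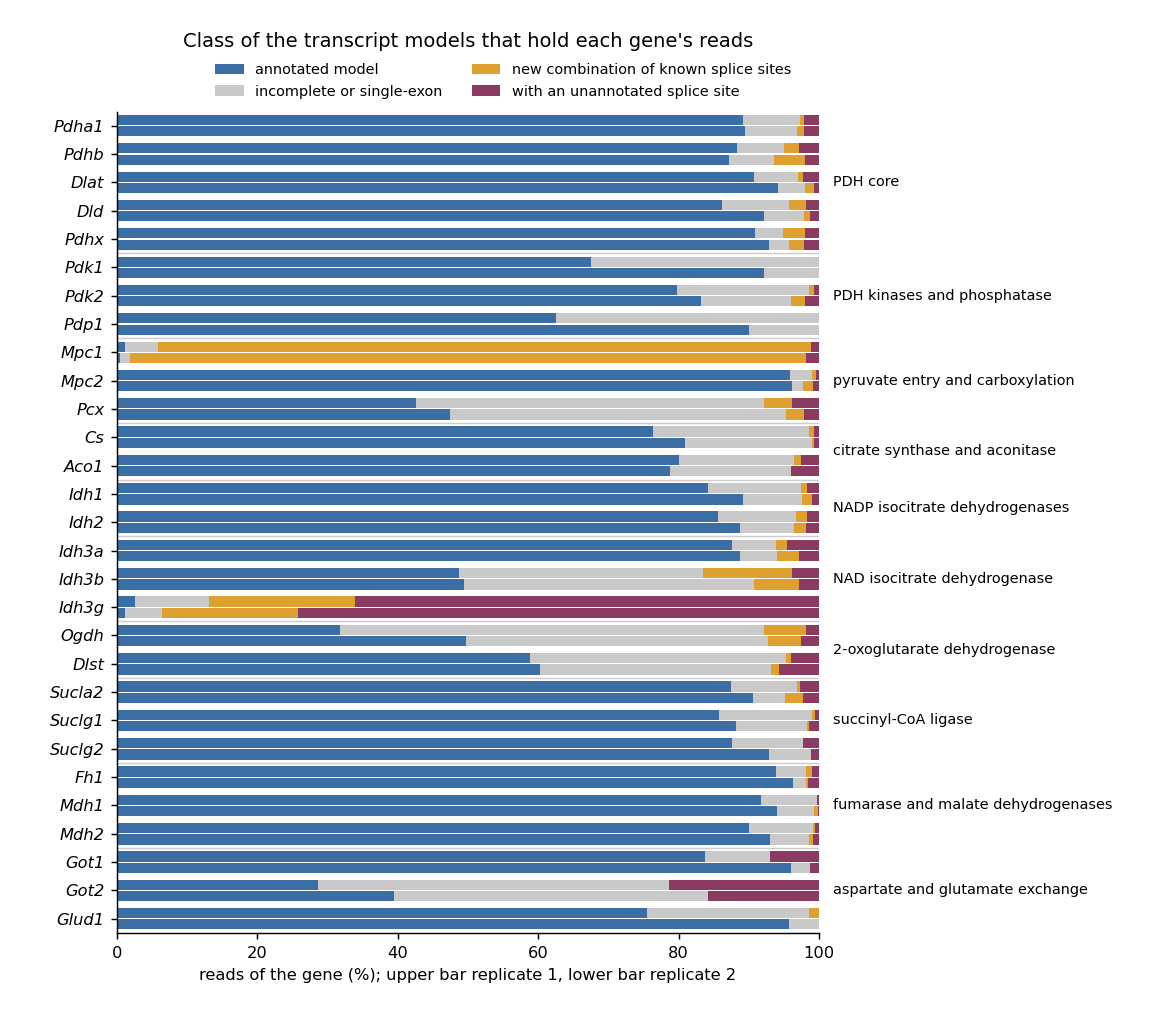
Share of each gene's reads by class of transcript model, upper bar replicate 1 and lower bar replicate 2. Annotated models prevail in most genes, while Mpc1 reads lie on a new combination of known splice sites and most Idh3g reads on a model with an unannotated splice site.

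The main spliced model held over 80% of the reads in both libraries for 16 of the 29 genes. Between the libraries its share could be tested in 25 genes, with Fisher's exact test adjusted over 2091 genes, and 2 were called with a gap of at least 10 percentage points and an adjusted p under 0.05, Ogdh and Glud1, against 1.87% of all genes tested. Both were lower in replicate 1, as were 1.77% of all genes tested. Ogdh-201 (gene at chr11:6291633-6356642) held 76 of 267 reads, 28.5% (23.1 to 34.3), in replicate 1, against 150 of 342 reads, 43.9% (38.5 to 49.3), in replicate 2 (Fisher's exact adjusted p = 0.00797). Glud1-201 (gene at chr14:34310727-34345265) held 108 of 143 reads, 75.5% (67.6 to 82.3), in replicate 1, against 133 of 139 reads, 95.7% (90.8 to 98.4), in replicate 2 (Fisher's exact adjusted p = 0.000373). For both the intervals of the libraries do not overlap. Models that hold a 3′ part of the annotated transcript took 44.2% and 28.7% of Ogdh reads, and 14.7% and 2.16% of Glud1 reads. Over the set such 3′ parts took 8.60% of reads in replicate 1 and 5.74% in replicate 2, while 5′ parts took 0.232% and 0.234%. The main share was lower in replicate 1 for 23 of the 25 genes, and for 72.4% of all genes tested, with a median difference of -3.19 points in the set and -2.98 points over all.

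**Figure D4:**
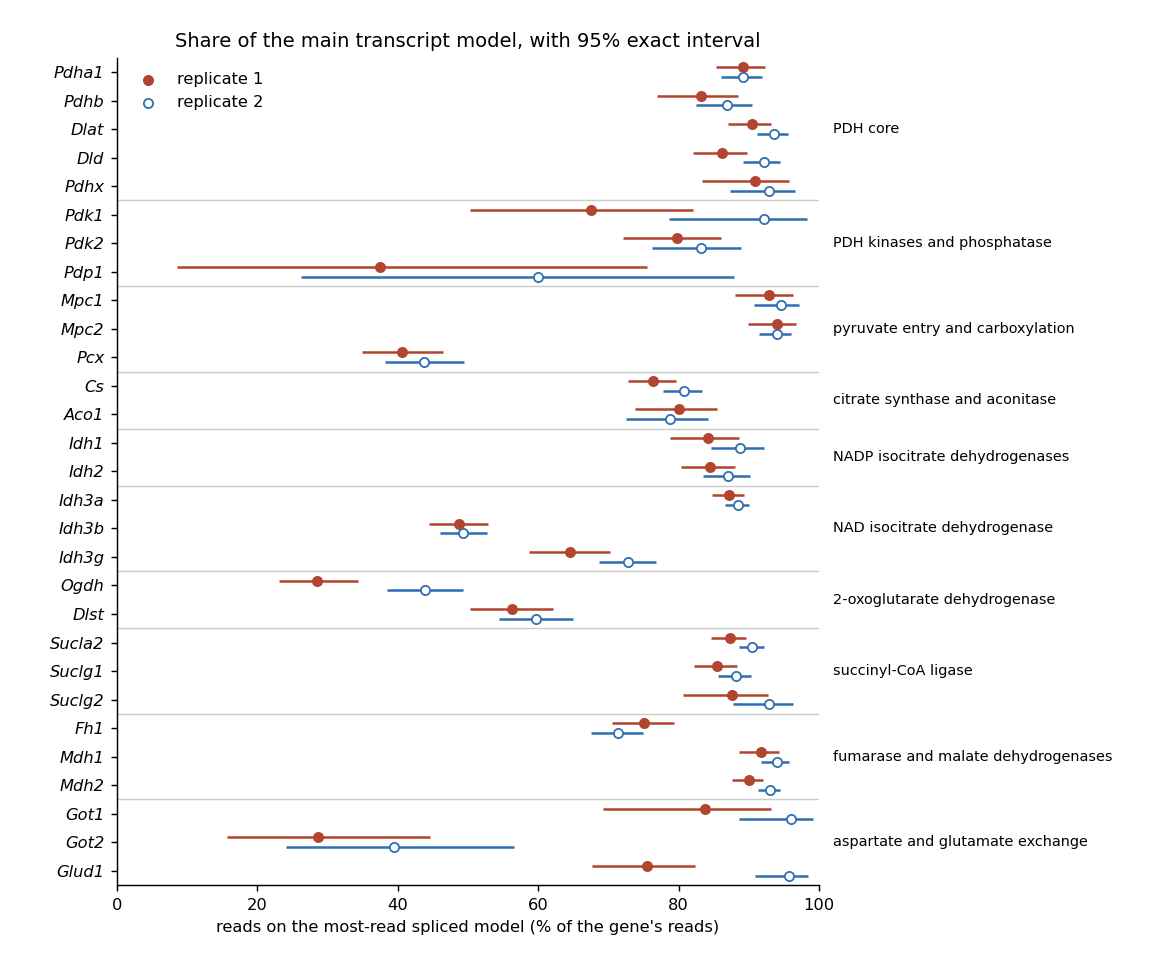
Share of each gene's reads on its most-read spliced model, with exact 95% intervals, filled for replicate 1 and open for replicate 2. In Ogdh and Glud1 the intervals of the libraries do not overlap, and in Pcx, Idh3b, Ogdh and Got2 the main model holds under 50% of reads in both.

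In the most-read annotated models the internal exons of the set were included in nearly every read that spans them. Internal exons of the most-read annotated model were scored as included or skipped in 265 cases over 28 genes with 20 or more informative reads. None was skipped in at least 10% of them, against 0.946% of 51290 exons over all genes, and 241 were never skipped. A model chosen for its reads holds the exons of those reads, so the rule itself favours inclusion, over all genes too. For Mpc1 and Idh3g the scored models were Mpc1-204 and Idh3g-202. Their scored exons do not take in the 4-base and 12-base exons described above. The share of skipping could be tested between the libraries for 24 exons. None was called, against 0% of 2288 exons over all genes, and 1, exon 2 of Sucla2 (2 of 679 reads in replicate 1, 14 of 1084 in replicate 2), had an unadjusted Fisher's exact p below 0.05.

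In contrast to the 4-base and 12-base exons, the 5 internal exons of 31 to 50 bases in the most-read annotated models were kept in both libraries, at 98.4% to 100% of reads. The choice of model favours this, as given above. Over all genes 2.35% of 2210 exons of 50 bases or fewer were skipped in at least 10% of reads. These exons were a 34-base and a 49-base exon of Dlst, a 36-base exon of Pdhb, a 41-base exon of Mpc2 and a 37-base exon of Pcx, which is not coding. The 34-base exon of Dlst (chr12:85111498-85111531) was in 163 of 164 reads in replicate 1 and 227 of 227 in replicate 2. The 4 coding ones are printed for comparison with the junctions of Mpc1 and Idh3g, with the exon in capitals and 24 coding bases on each side, on the gene's strand (Pdhb minus, the others plus).
Dlst-201, 34 bases: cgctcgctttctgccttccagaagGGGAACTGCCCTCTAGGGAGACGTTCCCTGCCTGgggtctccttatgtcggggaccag
Pdhb-201, 36 bases: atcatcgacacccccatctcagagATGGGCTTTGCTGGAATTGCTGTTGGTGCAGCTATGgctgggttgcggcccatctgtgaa
Mpc2-201, 41 bases: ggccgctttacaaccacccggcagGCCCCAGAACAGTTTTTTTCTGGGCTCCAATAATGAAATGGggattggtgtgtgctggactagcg
Dlst-201, 49 bases: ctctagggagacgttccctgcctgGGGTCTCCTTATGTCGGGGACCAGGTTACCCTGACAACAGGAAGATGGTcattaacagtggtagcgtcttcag
The 36-base exon lies at chr14:8171140-8171175, the 41-base exon at chr1:165474954-165474994 and the 49-base exon at chr12:85115273-85115321. Exons of all annotated transcripts were then counted, a choice made after the data were seen. Of 284 such exons of the set 11 were skipped in at least 10% of reads, against 5.33% of 55553 over all genes, and 9 of the 11 were never included. The 3 of them that are coding in full are the 4-base exons of Mpc1 and the 12-base exon of Idh3g. Annotated exons of 15 bases or fewer were never included for 64 of 67 over all genes (95.5%), those of 16 to 30 bases for 60 of 405 (14.8%), and those of 31 to 50 bases for 98 of 2256 (4.34%). The 3 exons of Mpc1 and Idh3g are among these 64. In the set 1 of 6 exons of 31 to 50 bases was never included (16.7%), the 39-base noncoding exon of Idh2-202 (chr7:80097172-80097210), left out in 341 of 341 reads in replicate 1 and 397 of 397 in replicate 2.

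**Figure D5:**
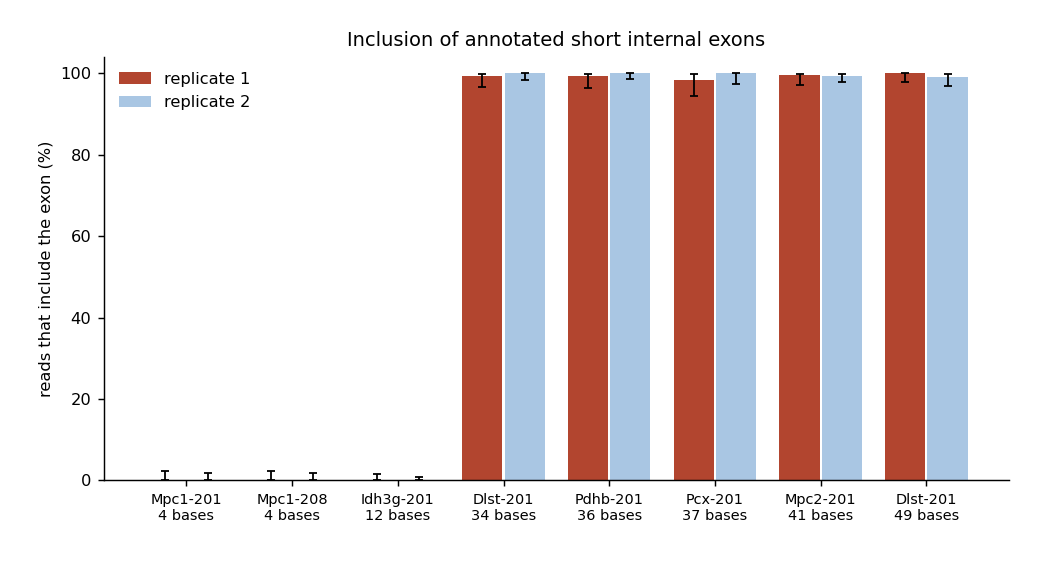
Share of informative reads that include each annotated internal exon of 50 bases or fewer in the main annotated models, with the 4-base and 12-base exons of Mpc1 and Idh3g, for replicate 1 and replicate 2; error bars are exact 95% intervals. The 3 shortest stand at 0% and the 5 exons of 34 bases or more at 98.4% to 100%. For the Mpc1-201 exon, scored only through a 4-base gap, the 0% and its interval set no limit.

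Other genes of the pathway, in 5 lists of 45 genes, had 41 members tested and 1 called, against 3.46% of all tested genes. The called gene was Gldc, the glycine decarboxylase of the cleavage system that uses Dld. It had 16 reads in replicate 1 and 3 in replicate 2 (6.14-fold, 1.99 to 37.2, exact binomial adjusted p = 0.0131, edgeR adjusted p = 0.248). Sdha and Sdhb, subunits of succinate dehydrogenase, had 1375 and 1368 CPM on average. The highest regulators and lipoylation factors were Pdk4, Glrx5 and Bola3 (674, 636 and 287 CPM), of which Glrx5 and Bola3 act in iron-sulphur cluster assembly. Acly, which splits citrate in the cytosol, Pck1, which makes phosphoenolpyruvate from oxaloacetate, and Me1, the cytosolic malic enzyme, led the anaplerosis list at 987, 581 and 207 CPM. Bckdhb, Bckdha and Bckdk of branched-chain 2-oxoacid breakdown had 296, 276 and 252 CPM, and the carriers Slc25a11, Slc25a1 and Slc25a10 had 268, 133 and 69.4 CPM. Over the 41 tested genes of the 5 lists the median log2 ratio was -0.03, against 0.04 over all tested genes.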

How the data were processed

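For each library the authors deposited whole-read counts per transcript model, with no normalization and models of at least 1 read only, and a gene model annotation. Per the file headers and notes these use mm10 and GENCODE M21, and the annotation names TALON. The aligner is not given in the sources used here, nor are tool versions. The number of exons and length of each model are as deposited.

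Counts of all models of a gene were summed. CPM used totals of 593165 reads in replicate 1 and 772154 in replicate 2, without ERCC spike-ins (2.23% and 2.09% of reads). A gene with 0 reads can reach 5.06 and 3.89 CPM (3 counts). Ratios are replicate 1 over replicate 2, with a pseudocount of 0.5 reads in log2 ratios. Genes with 10 or more reads summed were tested with a two-sided exact binomial test and Benjamini-Hochberg adjustment, and main model shares (50 reads in each library) and exon skipping (20 informative reads in each) with Fisher's exact test. An exon was included in models with both its flanking introns and skipped in models with the intron that joins the same outer splice sites. Intervals are exact (Clopper-Pearson, 95%) and cover counting error only. Alternatives were TMM and edgeR 4.0.16, DESeq2 1.42.0 size factors, other minimums, annotated models only and spliced models only. Reads shared with near-identical gene copies were not examined. The gene and share tests were tested on simulated data. All of the 29 genes are named, and of other lists the 3 highest and each called gene, of exons those skipped in at least 10% or of 50 bases or fewer, and of unannotated spliced models the 10 most read. 1 gene that this rule would name is not reported here. The genes and lists were chosen with earlier results of these data known. Python 3.11.15, SciPy 1.17.1 and R 4.3.3 were used.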

Additional observations from a re-analysis of the deposited data

How the results depend on the processing

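The count of called genes of the set stayed at 0 under every alternative except the one without a fold minimum, which gave 6; the other alternatives were no minimum of reads, 20 reads, TMM and DESeq2 library sizes, annotated or spliced models only, and the edgeR exact test. The summed level was 12408.8 CPM on annotated models only and 14925 CPM on spliced models only, against 15944 CPM on all models. With 1 library left out it ran between 15274 and 16614.6 CPM. The share of reads on annotated models was 77.8% on average and 83.0% of spliced reads, and 76.1% to 79.4% with 1 library left out. Ogdh and Glud1 were the 2 genes with a different main transcript share under each alternative tried (20 reads, no minimum difference, spliced models only), and no exon differed in skipping under any. Skipped exons numbered 0 in the most-read annotated models, a choice of model that favours included exons. They numbered 11 when exons of all annotated transcripts were counted, an alternative chosen after seeing the data. That rule takes in exons of minor transcripts by its construction. No paired analysis was possible because the 2 libraries form 1 group. Depth limits Pdp1, with 8 and 10 reads, most.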
